A study of Saccharomyces cerevisiae x Saccharomyces paradoxus and Saccharomyces cerevisiae and Saccharomyces paradoxus with 10 samples.

Results

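Translational efficiency (TE) was measured gene by gene in the Saccharomyces paradoxus parent of a yeast hybrid, as the log2 ratio of the gene's share of ribosome-protected fragments (RPF, the mRNA stretches that translating ribosomes shield from nuclease) over its share of poly-A selected mRNA. All 4637 genes of the table were members, and 4502 of them reached a mean coverage of 3 ppm (parts in 1000000 of a column's total) over the 4 parental columns and were tested, so that 135 were not. The values came from 5 of the 10 samples, which made up 2 RPF replicates, the second of them sequenced in 2 lanes, and 2 mRNA replicates. The S. paradoxus strain was CBS432, labelled diploid, and all its RPF and 1 of its mRNA libraries were prepared from material mixed with the S. cerevisiae strain BY4176, labelled haploid; the other mRNA library held S. paradoxus alone. The sources used here do not tell which mRNA column is the mixed library, whose labels give both haploid and diploid as its ploidy. The S. paradoxus alleles of the diploid hybrid, a cross of BY4176 (MAT-alpha lys2 ura::KAN) with CBS432 (MATa ura::HYG), gave an independent set of 2 RPF and 2 mRNA libraries. Every culture of both strains began as a single colony and was grown in rich YPD medium at 30 °C to log phase. Since no label ties the replicates to separate cultures, the p-values measure only the spread between these libraries, which may be technical.

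Ribosome density on an mRNA is set mainly by how often ribosomes start on it, and the ratio of footprints to mRNA is used as a stand-in for that rate. In budding yeast, starts are favoured by an adenine at position -3 before the start codon, and they are reduced by short upstream open reading frames (uORFs), which capture scanning ribosomes before they reach the coding sequence. The best known case is GCN4, the activator of amino acid synthesis genes, whose uORFs keep it poorly translated while amino acids are plentiful. Because every column was expressed as a share of its own total, a TE of 0 means that a gene took the same share of footprints as of mRNA, and absolute rates were not measured.

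Total coverage before the authors' scaling between species was 49.8 and 256 megabases (Mb) in RPF replicates 1 and 2, and 120.0 and 170.2 Mb in mRNA replicates 1 and 2. Depth in reads was unknown. On the log2 scale the replicates correlated across 4502 genes with r = 0.988 for RPF and r = 0.985 for mRNA, and the median absolute difference between replicates was 0.18 for RPF and 0.16 for mRNA. The diploid label was checked on 12 mating-type and haploid-specific genes present in the table. Their median coverage was 1.39 and 2.45 ppm in RPF and 5.36 and 5.28 ppm in mRNA, against medians over all genes of 73.9 and 76.3 ppm in RPF and of 130.0 and 129 ppm in mRNA, and their highest values were 10.5 and 9.52 ppm in RPF and 54.2 and 51.1 ppm in mRNA. The sources used here do not tell whether coverage was assigned by strand, so reads of a gene and of an overlapping antisense transcript cannot be told apart.

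TE differed among the genes of this species over a wide range. The 5th and 95th percentiles of TE were -2.34 and 0.68 on the log2 scale, an 8.14-fold span, and the extremes were -5.94 for DUR3, a polyamine and urea transporter gene with an RPF mean under 3 ppm, and 3.29 for TVS1. The median gene was at -0.70, with quartiles at -1.26 and -0.14. Footprints were concentrated on fewer genes than mRNA. The 100 genes with most coverage held 29.8% and 28.9% of the RPF columns, against 18.0% and 18.2% of the mRNA columns. With limma's moderated test and Benjamini-Hochberg adjustment over all 4502 genes, 456 genes (10.1%) had a higher and 2962 (65.8%) a lower share of RPF than of mRNA at an adjusted p under 0.05. Those 456 genes took 48.2% of all footprints and 26.1% of all mRNA coverage. When the columns were instead scaled by the median of ratios, which sets the median gene to 0 and so adds about 0.70 to every TE, 1437 genes (31.9%) were higher and 1368 (30.4%) lower. A gene with a TE between -0.70 and 0 therefore changes sign with the scaling, and counts are given below under both, with scaling to column totals first.

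**Figure D1:**
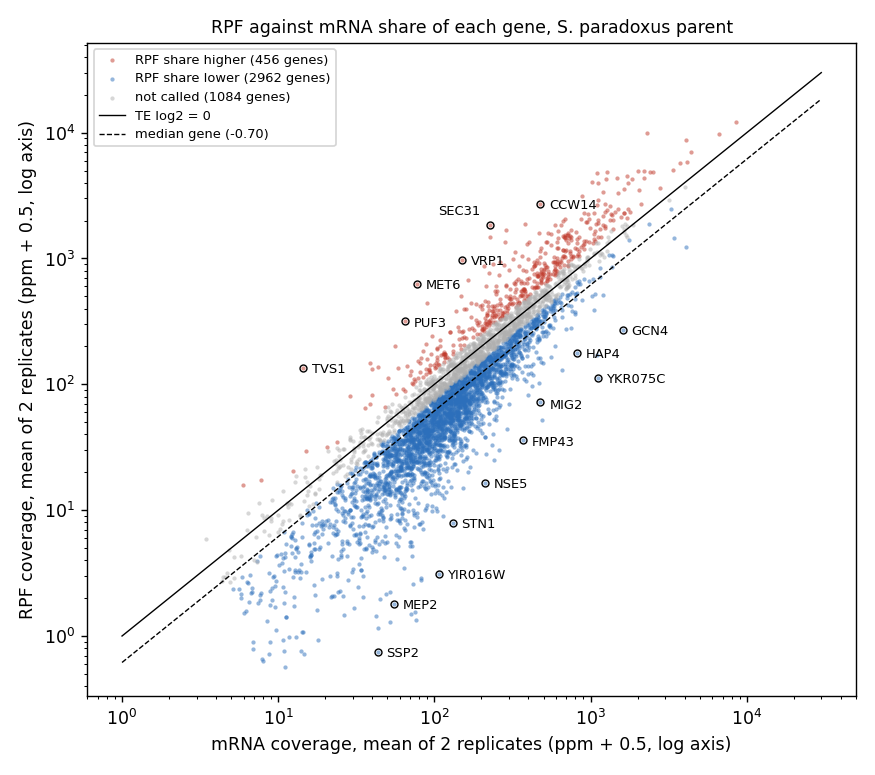
Each of the 4502 tested genes of the S. paradoxus parent by its RPF coverage (vertical) and mRNA coverage (horizontal), in ppm plus 0.5 on log axes, as means of 2 replicates. Red and blue points are the 456 genes called higher and the 2962 called lower in RPF, the solid line marks a TE of 0, the dashed line the median gene at -0.70, and named genes are circled.

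Among well covered genes, SEC31, MET6 and TVS1 had the highest TE. The genes named here come from the 12 highest called genes with a mean of at least 50 ppm whose RPF values both exceeded both mRNA values. SEC31, on chromosome IV from 107208 to 111029 in the S. cerevisiae R64 annotation, encodes the outer COPII coat protein of vesicles that leave the endoplasmic reticulum. It had 2055 and 1623 ppm in RPF, against 269 and 184 ppm in mRNA. This is a TE of 3.03 with a standard error of 0.15, or 8.18-fold more footprints than mRNA share (limma, adjusted p = 2.86e-32). MET6, the cobalamin-independent methionine synthase, had 629 and 627 ppm in RPF and 80.7 and 72.6 ppm in mRNA, a TE of 3.03. TVS1 had 132 and 137 ppm in RPF and 18.6 and 9.40 ppm in mRNA, a TE of 3.29 ± 0.22 (SE) on a low mRNA level. It reached the limit of 50 ppm only through its RPF. In each of these genes the RPF and mRNA values lay far apart compared with the gaps between replicates, but the choice of genes required that they not overlap.

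VRP1, verprolin of the cortical actin patches, reached a TE of 2.67, and ABP1, the actin-binding protein of the same patches, 2.25. CCW14, a glycoprotein of the inner cell wall, had a TE of 2.53, from 3289.7 and 2106 ppm in RPF and 616 and 335 ppm in mRNA. Among the others, DHH1, a DEAD-box helicase that promotes mRNA decapping, had a TE of 2.34, and PUF3, which binds mRNAs for mitochondrial proteins, 2.31. KAP123, an importin that carries ribosomal proteins into the nucleus, had a TE of 2.30. Scer_15.440 at 2.76 and Scer_12.65 at 2.13 carry no systematic name in the table.

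Among called genes with a mean of at least 50 ppm over RPF and mRNA, YIR016W, STN1 and NSE5 had the lowest TE. Of the 12 lowest, 9 had fewer than 20 ppm of footprints in both replicates. All of the 12 except YKR075C reached the limit of 50 ppm only through their mRNA, so the choice favoured genes with few footprints. YIR016W, on chromosome IX from 382628 to 383425, had 3.69 and 1.56 ppm in RPF, against 112 and 100.4 ppm in mRNA. Its TE of -5.18 ± 0.27 (SE) corresponds to 36.3-fold more mRNA share than footprint share. With an RPF mean under 3 ppm it passed both coverage limits through its mRNA, so these values are a description. STN1, on chromosome IV from 610441 to 611925, encodes a telomere-capping protein and had 9.50 and 5.45 ppm in RPF and 123 and 139 ppm in mRNA, a TE of -4.09. NSE5, a subunit of the Smc5/6 complex of DNA repair, had 14.9 and 17.1 ppm in RPF and 202 and 221 ppm in mRNA, a TE of -3.68. Both RPF values lay below both mRNA values in each of these genes, as the choice of genes required.

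Among mitochondrial proteins, ATP22, which activates translation of the mitochondrial ATP6 mRNA, had a TE of -3.65, FMP43, a pyruvate carrier subunit of the inner membrane, -3.45, and RRG1, needed to keep the mitochondrial genome, -3.30. NIP100, a dynactin subunit, was at -3.39, PCL10, a cyclin of the Pho85 kinase in glycogen control, at -3.29, RIM21, a plasma membrane sensor of alkaline pH, at -3.26, and RRN9, a subunit of the upstream factor of RNA polymerase I, at -3.16. YKR075C had the most mRNA of the 12, followed by FMP43. YKR075C had 132 and 92 ppm in RPF, against 1235 and 1000.2 ppm in mRNA, a TE of -3.33. Scer_8.182, without a systematic name, was at -3.39. All 24 genes of both extremes kept their direction and stayed past the threshold under all of the 15 other settings in which they were tested. The low genes other than YKR075C had reached the limit of 50 ppm only through their mRNA, so their calls describe genes with few footprints. In the independent libraries of the hybrid, all 12 high genes were above 0. All 12 low genes were below the hybrid's median gene, at -0.67. Several high genes had smaller values there, with SEC31 at 1.36, MET6 at 1.58 and VRP1 at 1.21. TE was called higher in the parent than in the hybrid for SEC31, MET6, VRP1, TVS1, PUF3, ABP1 and Scer_12.65, beside 3.98% of all genes. It was not for Scer_15.440, CCW14, DHH1 and KAP123. All of these genes were picked for a high TE in the same parental columns, which by itself favours such calls. No result is therefore drawn from these calls or from the smaller values in the hybrid.

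**Figure D2:**
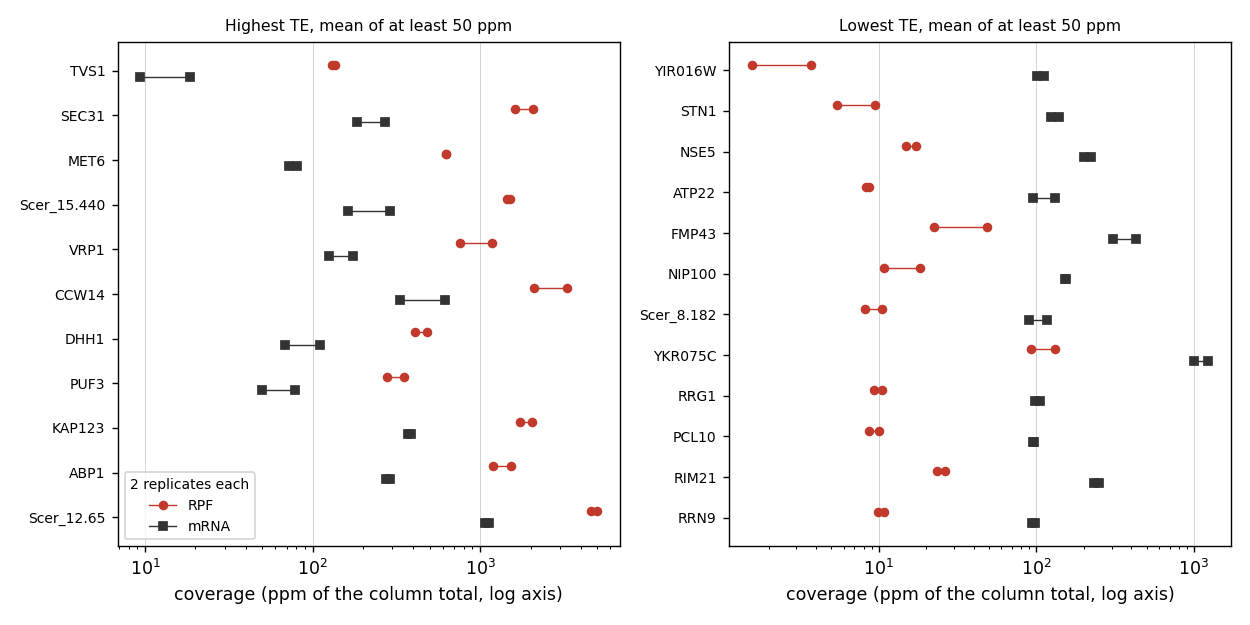
Coverage in ppm on log axes of 11 of the 12 genes with the highest (left) and the 12 with the lowest TE (right) among genes with a mean of at least 50 ppm. Red circles are the 2 RPF replicates and black squares the 2 mRNA replicates, each pair joined by a line; in every gene the pairs do not overlap, as the choice of genes required.

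Start codon surroundings were read from the S. cerevisiae orthologues in the R64 genome of RefSeq, since no S. paradoxus genome was used here, and may differ from the S. paradoxus sequence. The contexts of 5 of the highest genes and of the 5 lowest with a systematic name are shown because the base at -3 is the strongest known part of the yeast start context; capitals mark that base and the start codon.
TVS1: atagtgagaGtaATGgtg
SEC31: tgaacaataAagATGgtc
MET6: tacatatcaAaaATGgtt
VRP1: cgaattgttGaaATGgca
CCW14: ttatatattAtcATGcgt
YIR016W: ttgtggtcgGtaATGagt
STN1: tgggttggaGccATGgat
NSE5: ggtagtctgAgtATGgat
ATP22: gttcttattGgcATGtta
FMP43: cctatatttTtaATGtca
Among all named genes of the extremes with an R64 coding sequence, A stood at -3 in 6 of the 10 highest and in 5 of the 11 lowest, against 60.6% of 4273 genes. An ATG in the 50 bases before the start codon, searched on the coding strand only, was present in none of the 10 highest and in 6 of the 11 lowest, against 18.0% of 4273 genes. These counts describe genes picked for their TE, and the motif search was chosen after those genes had been seen.

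The nearest upstream ATG of those 6 low genes is shown with 6 bases before and 15 after it, in capitals, because a start there lies ahead of the coding sequence.
STN1: ttaataATGggttggagccatgga
NSE5: cggcaaATGgtgattgtagtggta
ATP22: actttaATGttcttattggcatgt
RRG1: tttgtaATGaacaagtagaaaata
PCL10: tattccATGcgcaaatagattact
RIM21: cactcgATGaatagtcgattctgc
The upstream ATG lay 13 bases before the coding start in STN1, 14 in ATP22, 17 in RRG1, 22 in RIM21, 24 in PCL10 and 26 in NSE5. The reading frame it opens ends before the coding start in NSE5, RRG1 and PCL10, and runs over it, out of frame, in STN1, ATP22 and RIM21. Whether these ATGs lie within the transcripts, or are present in S. paradoxus, was not tested.

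Genes known from S. cerevisiae to carry uORFs ranged from among the lowest TE values to above 0. Of 15 listed, 14 were tested, of which 10 were lower and 1 higher in RPF (8 lower and 4 higher with median-of-ratios scaling). These counts are near the shares of all genes, of which 65.8% were lower and 10.1% higher, while the median TE was -1.33 in the list and -0.70 over all genes. GCN4, on the minus strand of chromosome V, had 291 and 250.0 ppm in RPF, against 1558 and 1664 ppm in mRNA. Its TE of -2.58 ± 0.14 (SE) was a 5.96-fold lower share of footprints than of mRNA (limma, adjusted p = 3.26e-29). Footprints of GCN4 were thus few for its abundant mRNA, though above the medians over all genes of 73.9 and 76.3 ppm. In the R64 sequence, 4 short uORFs with start and stop in capitals lie in the 600 bases before GCN4. They are shown because together they are known to keep it poorly translated in S. cerevisiae while amino acids are plentiful.
GCN4 uORF starting 361 bases upstream: ATGgcttgcTAA
GCN4 uORF starting 293 bases upstream: ATGtgtTAA
GCN4 uORF starting 176 bases upstream: ATGtacccgTAG
GCN4 uORF starting 151 bases upstream: ATGtttccgTAA

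HAP4, the activating subunit of the respiratory regulator, followed with 199 and 157 ppm in RPF and 983 and 649 ppm in mRNA, a TE of -2.17. CBS1, a translational activator of the mitochondrial cytochrome b mRNA, was at -1.81, and the AP-1 factor CAD1 at -1.64. The polyamine transporter HOL1 was at -1.49, the deoxycytidylate deaminase DCD1 at -1.48, the phospholipid gene activator INO2 at -1.41 and the pyrimidine pathway activator PPR1 at -1.25. CPA1, an enzyme subunit of arginine synthesis, is repressed in S. cerevisiae by an arginine-sensing uORF peptide. It had 235 and 201 ppm in RPF and 397 and 337 ppm in mRNA, a TE of -0.75. The oxidative stress factor YAP1 was at -0.39. The copper chaperone gene SCO1 was at -0.13, the G1 cyclin gene CLN3 at -0.07 and the nutrient kinase gene SCH9 at 0.32, and none of these 3 passed the test. In the hybrid, CLN3 was at -1.55 and SCH9 at -0.81, and both were called higher in the parent than there. SCO1 was at 0.49 in the hybrid and was not called different. TIF4631, the eIF4G scaffold of initiation, was the member called higher, at 0.81, so the list did not move as 1 block. Both tested genes of the unfolded protein response splicing pathway were lower in RPF, as were 65.8% of all genes. The kinase-nuclease IRE1 was at -1.47 and the tRNA ligase TRL1 at -0.49, which is above the median gene. With median-of-ratios scaling TRL1 was above 0, at 0.21.

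Over all genes, an ATG in the 50 bases before the start codon of the S. cerevisiae orthologue went with lower TE. The median TE was -1.10 in 768 genes with such an ATG, against -0.63 in 3505 genes without one. Genes with the ATG also had less mRNA, with a median of 96.5 against 133 ppm per kb. Within quintiles of mRNA level, taken from the hybrid so that the quintiles share no library with the TE, the medians were -1.58 with and -1.18 without the ATG in the lowest quintile, -1.15 and -0.74 in the middle one, and -0.38 and -0.06 in the highest. The genes with the ATG had the lower median in all 5 quintiles. The base at -3 showed a smaller step. Median TE was -0.62 with A (2591 genes), -0.77 with G (844), -0.91 with T (466) and -0.92 with C (372), and within the mRNA quintiles, from lowest to highest, the medians with A against other bases were -1.22 against -1.35, -0.96 against -1.01, -0.723 against -0.998, -0.47 against -0.58 and -0.09 against -0.10.

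The protein synthesis machinery stood above the median gene. All 17 tested cytosolic aminoacyl-tRNA synthetases, which charge tRNAs with amino acids, were above it, with a median TE of 0.55. Of them 12 were higher and none lower in RPF at column-total scaling, where 10.1% and 65.8% of all genes were, and all 17 were higher with median-of-ratios scaling. YHR020W, the prolyl-tRNA synthetase, had 2045 and 1948 ppm in RPF and 691 and 645 ppm in mRNA, a TE of 1.58, and CDC60, the leucyl-tRNA synthetase, was at 1.24. The lowest of the list, the tryptophanyl enzyme WRS1 at -0.16 and the seryl enzyme SES1 at -0.13, did not pass the test. Of 25 initiation factors 11 were higher and 6 lower (19 and 0), with a median of 0.08. CAF20, an inhibitor that binds the cap-binding protein eIF4E, was highest at 1.14 and RPG1, an eIF3 subunit, next at 1.01, while TIF11, eIF1A, was lowest at -1.03 and GCN3, an eIF2B subunit, next at -0.63. Of 4 elongation factors 2 were higher and none lower (4 and 0), with NEW1 at 1.05 and TEF4 at 0.60, and the 5 termination and recycling factors had 2 higher and 2 lower members (3 and 0), with SUP35, eRF3, highest at 0.71. TMA64, a recycling factor, was lowest, with 67.2 and 85.4 ppm in RPF and 150.3 and 153 ppm in mRNA.

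Ribosomal proteins lay near a TE of 0. Only 22 cytosolic ribosomal protein genes were in the table, and since most exist as near-identical pairs their values are uncertain. Of these 22, 5 were higher and 6 lower (18 and 1), with a median TE of -0.12. RPL8A reached 1.23 from 1514 and 1384 ppm in RPF and 608 and 630.1 ppm in mRNA. RPL22B was at -1.56 from 209.6 and 191 ppm in RPF and 584 and 595 ppm in mRNA, and was the member of the list below the median gene. The 104 tested genes of ribosome assembly had a median of -0.21, with 12 higher and 43 lower (63 and 6). RRP5, a large assembly factor of both subunits, was highest at 1.15 and RRS1 next at 0.77, whereas JJJ1, a J-protein of late 60S maturation, was at -1.58 and UTP6, of the small-subunit processome, at -1.54. RNA polymerase subunits had a median of -0.43 over 25 genes, with 2 higher and 14 lower (11 and 2). Beside these lists, 10.1% of all genes were higher and 65.8% lower (31.9% and 30.4%). The polymerase subunits ran from RPA190, the largest subunit of polymerase I, at 0.50 to the polymerase III subunit RPC11 at -1.24.

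Among mitochondrial genes, enzymes of respiration and of the tricarboxylic acid cycle lay above the mitochondrial ribosome. Of 27 respiratory chain and ATP synthase genes 10 were higher and 7 lower (20 and 1), with a median of -0.03. ATP1, the alpha subunit of the ATP synthase, had 1699.9 and 1445 ppm in RPF and 611 and 500.0 ppm in mRNA, a TE of 1.50, and COR1 of the bc1 complex was at 1.01. NDE2, an external NADH dehydrogenase, was lowest at -1.79 on fewer than 20 ppm in every parental column, and NDI1 was at -0.74. Of 8 tricarboxylic acid cycle genes 5 were higher and none lower (8 and 0), led by KGD2 at 0.75 and KGD1 at 0.72, the subunits of ketoglutarate dehydrogenase. The 66 mitochondrial ribosomal proteins had a median of -0.47, with 1 higher and 36 lower (26 and 3). The higher one was MRPL4 at 0.42, and MRPS17 was lowest at -1.50. The difference between these lists was not tested. Beside them, 10.1% of all genes were higher and 65.8% lower (31.9% and 30.4%). Of 21 listed genes of glycolysis and fermentation only 5 were in the table, of which 4 were higher and none lower (4 and 0). PGI1, phosphoglucose isomerase, was at 1.20 and PGK1, phosphoglycerate kinase, at 0.78.

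Protein folding and turnover genes differed among themselves. Over all genes 10.1% were higher and 65.8% lower (31.9% and 30.4%). Of 25 chaperone genes 11 were higher and 4 lower (20 and 1), with a median of 0.10. STI1, the Hsp70 and Hsp90 co-chaperone, was highest at 1.23 and HSP60, the mitochondrial chaperonin, was at 1.00. HSP26, a small heat shock protein made mostly under stress, stood far below the rest, with 5.44 and 2.87 ppm in RPF, against 38.1 and 40.4 ppm in mRNA, a TE of -3.15 (limma, adjusted p = 3.46e-17). The 30 proteasome genes had a median of -0.26, with 3 higher and 12 lower (19 and 0), from RPN2 at 0.53 to RPN9 at -0.97. Their 3 higher members are near the share of all genes. Of 25 genes of translocation into the endoplasmic reticulum and of secretion, 2 were higher and 16 lower (10 and 2), with a median of -0.52. Both counts at column-total scaling are near the shares of all genes. The higher ones were SEC61, the translocation channel, with 786 and 986 ppm in RPF and 319 and 239 ppm in mRNA, a TE of 1.67, and OST3, an oligosaccharyltransferase subunit, at 1.48. The lowest were a receptor subunit of the signal recognition particle at -1.16 and SRP72, a protein of the particle, at -1.07.

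Of 19 ergosterol synthesis genes 8 were higher and 7 lower (14 and 0), with MVD1, mevalonate pyrophosphate decarboxylase, highest at 1.73 and ERG24 lowest at -0.87. Of 9 proton-pumping V-ATPase genes 1 was higher and 4 lower (5 and 2), with VMA2 at 1.09 and VMA16 at -1.37. Beside these groups, 10.1% of all genes were higher and 65.8% lower (31.9% and 30.4%). Cell wall genes had a median TE of 0.46 over 19 tested genes, with 10 higher and 2 lower (17 and 2). Besides CCW14, the glucanosyltransferase GAS1 was at 1.40. The lower ones, TIR2 at -3.25 and TIR4 at -2.48, had an RPF mean under 3 ppm and passed the filter through their mRNA, so no result is drawn from their calls. They are mannoproteins known for their expression in the cold and without oxygen, from a family of similar genes. TIR2 had 0.141 and 1.11 ppm in RPF and 10.1 and 8.26 ppm in mRNA, so its footprint level was near the floor of the measurement.

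Within pathways of amino acid synthesis, neighbours differed strongly in TE. Among 17 tested methionine and sulfur genes, RPF exceeded mRNA in 7 and fell below it in 6 (9 and 4), with a median of -0.20. Over all genes 10.1% were higher and 65.8% lower (31.9% and 30.4%). MET6 and MET17, the homocysteine synthase, were at 3.03 and 1.73. MET3, the ATP sulfurylase that starts sulfate assimilation, had 5.76 and 4.90 ppm in RPF, against 42.3 and 40.3 ppm in mRNA, a TE of -2.84, and MET1, an enzyme of siroheme synthesis, was at -2.39. Of 16 arginine and lysine genes 4 were higher and 5 lower (11 and 2), with a median of -0.08. LYS1, the last enzyme of lysine synthesis, was higher at 1.05, and the lowest were the mitochondrial ornithine carrier ORT1 at -2.18 and LYS5 at -1.20.

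Transporters of the plasma and vacuolar membranes had 1 higher and 12 lower of 17 (4 and 6), with a median of -0.60. These values are near those of all genes, of which 10.1% were higher and 65.8% lower, with a median of -0.70. MEP2, an ammonium permease used when nitrogen is scarce, had 1.95 and 0.672 ppm in RPF, against 53.8 and 56.1 ppm in mRNA, a TE of -5.03. It is 1 of 2 transporters with an RPF mean under 3 ppm, which passed the filter through their mRNA, so the 12 lower include calls that the filter favoured. PTR2, the peptide transporter, was at the other end with 1559 and 1615 ppm in RPF and 646 and 426 ppm in mRNA, a TE of 1.60. HIP1, the histidine permease, at 0.22 did not pass the test, and TAT2, the tryptophan permease, was lower at -1.76.

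Transcription factors lay near all genes in median TE and in the share called lower at column-total scaling. The 82 tested DNA-binding transcription factors had a median of -0.68, close to the -0.70 of all genes. Of them 5 were higher and 53 lower (24 and 15), beside 10.1% higher and 65.8% lower of all genes (31.9% and 30.4%). With median-of-ratios scaling their share of lower calls was thus smaller than that of all genes. MIG2, a glucose repressor, was lowest at -2.71 from 85.1 and 58.9 ppm in RPF and 555 and 389.8 ppm in mRNA, and YOX1, a cell cycle repressor, was highest at 0.94, with SOK2 at 0.62. None of 16 cyclins and inhibitors of cyclin-dependent kinases was higher and 13 were lower (3 and 7), with a median of -0.87. FAR1, an inhibitor induced by mating pheromone, was at -2.92 and the phosphate cyclin PHO80 at -2.35, both on fewer than 30 ppm in every parental column, and FAR1 passed the filter with an RPF mean under 3 ppm. The kinase gene PHO85 at -0.03 and CLN3 at -0.07 did not pass the test. Of 3 histone genes in the table, HHO1, histone H1, was higher at 0.61, HTB2 higher at 0.32 and HTZ1 lower at -0.51, the last being above 0, at 0.19, with median-of-ratios scaling.

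Meiosis genes and mating-type genes, which a diploid growing in rich medium keeps nearly silent, had little mRNA and even fewer footprints. Over the 38 meiosis and sporulation genes in the table, coverage summed to 180 and 204 ppm in RPF, against 673 and 665 ppm in mRNA. Only 19 were tested, and 12 of those had an RPF mean under 3 ppm and so passed the filter through their mRNA, which is why no count is drawn from them. SSP2, needed for spore wall formation, had 0.141 and 0.359 ppm in RPF and 43.1 and 42.5 ppm in mRNA, a TE of -5.87, and CST9, a meiotic recombination protein, had 0.542 and 1.46 ppm in RPF and 76.1 and 65.4 ppm in mRNA, a TE of -5.63. At the other end, SPS2 was at 0.07 and SPO14, phospholipase D, at -0.65. Over the 16 mating and haploid-specific genes in the table, coverage summed to 56.4 and 50.8 ppm in RPF and to 364 and 330.0 ppm in mRNA. Of them 10 were tested, 2 of those with an RPF mean under 3 ppm, and no count is drawn from them either. SST2, which dampens pheromone signalling, had 5.60 and 3.71 ppm in RPF and 75.4 and 66.4 ppm in mRNA, a TE of -3.81, and the alpha-agglutinin gene SAG1 was at -3.16, with AGA1 at -1.54 and the pheromone receptor STE3 at -1.79. Of the tested genes as a whole, 108 had an RPF mean under 3 ppm and 1 an mRNA mean under 3 ppm, so genes with weak footprints could pass the filter while genes with weak mRNA hardly did.

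**Figure D3:**
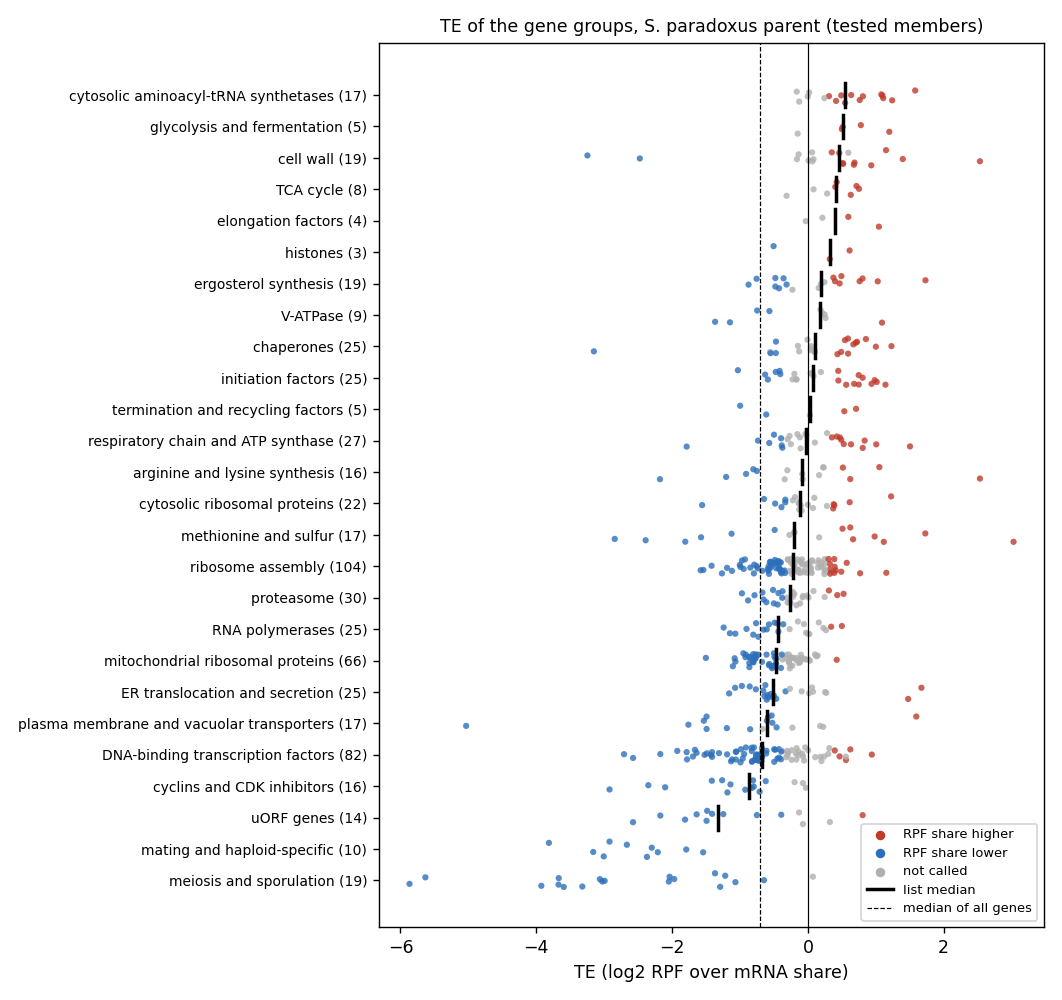
TE (log2 of RPF over mRNA share, horizontal) of the tested members of each gene group with at least 3 of them, with the number tested in brackets; red, blue and grey points are members called higher, called lower and not called, and black bars are group medians. The solid line is a TE of 0 and the dashed line the median of all genes at -0.70, below which the medians of the uORF and cyclin groups lie. No median is drawn for the mating and meiosis groups, whose tested members passed the filter partly through mRNA alone.

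TE followed the mRNA level of the genes. Across 4273 genes with an R64 coding sequence, Spearman's rho between TE and mRNA coverage per kb was 0.44, and 0.50 with the mRNA level measured in the hybrid, which shares no library with this TE. Median TE in quintiles of the hybrid mRNA level was -1.29, -0.99, -0.78, -0.49 and -0.09 from the lowest to the highest. These correlations are across genes, which are not independent replicates, and describe 1 set of libraries. Coding sequences rich in G and C had higher TE, with rho = 0.37 and medians of -1.14 in the lowest and -0.20 in the highest quintile of GC content. Genes of low divergence between S. cerevisiae and S. paradoxus, which evolve slowly, had higher TE too, with rho = -0.34 for coding divergence and a median of -0.26 in the least and -1.07 in the most diverged quintile. Both properties also went along with the mRNA level, at rho = 0.29 for GC content and -0.47 for divergence.

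Amino acid content went with TE as well. Alanine content had rho = 0.41 and medians of -1.14 in the lowest and -0.13 in the highest quintile, but alanine also followed the mRNA level, at rho = 0.38. Proline content had rho = 0.21 with TE and -0.05 with the mRNA level. Median TE was -0.88 in the quintile with least proline and -0.42 in that with most. VRP1 had the highest proline share of the named genes, at 22.4% of its residues, against a median of 4.19% over all genes, and ABP1 had 11.1% and SEC31 8.72%. Other genes of the extremes went the other way. Among the highest, CCW14 had 2.52% and KAP123 3.32%, and among the lowest, YIR016W had 4.91%, FMP43 4.79% and RRG1 4.38%. Median proline was 5.26% in the highest and 3.51% in the lowest named genes with an R64 coding sequence. In the hybrid, rho between TE and proline content was 0.10.

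Coding length showed no single trend in the parent. The median TE was -0.52 in genes of 303 to 600 bases, -0.83 in those of 1503 to 1998 bases and -0.46 in those of 3003 bases or more, and rho was -0.03. The replicates differed in this respect, with rho = -0.13 for replicate 1 over mRNA 1 and 0.08 for replicate 2 over mRNA 2. In the hybrid the same classes had medians of -0.05, -0.89 and -1.15, and rho was -0.34 and -0.33 in its replicates, so the libraries of both strains differ in how coverage depends on length. The 50 genes with more than 1 coding part, that is with an intron, had a median TE of -0.28 and 486 ppm of mRNA per kb, against -0.72 and 123 ppm in 4223 genes without.

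**Figure D4:**
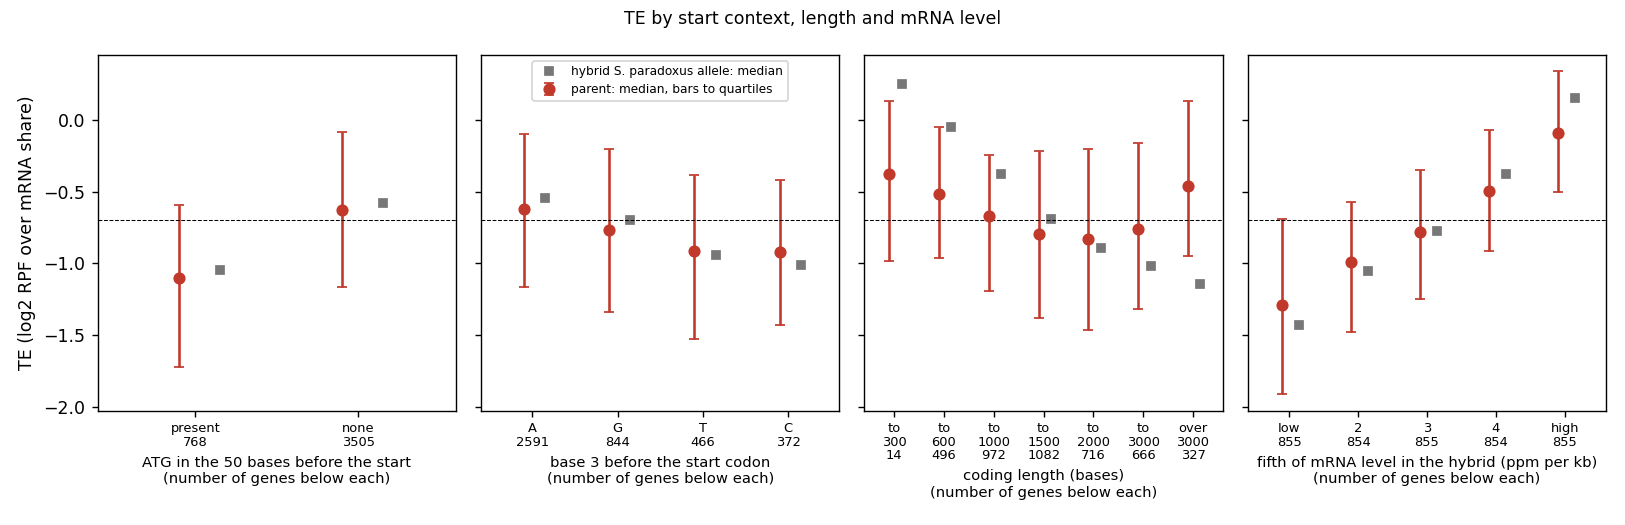
TE (log2, vertical) of 4273 genes by the presence of an upstream ATG, by the base 3 before the start codon, by coding length and by quintile of the hybrid mRNA level. Red circles with bars are medians and quartiles in the S. paradoxus parent, grey squares are medians of the S. paradoxus allele in the hybrid, and the numbers under the axes count genes; among the longest genes the parent is at -0.46 and the hybrid at -1.15.

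The S. paradoxus alleles in the hybrid showed largely the same order of genes. Across 4497 genes tested in the parent and in the comparison with the hybrid, TE correlated with r = 0.83 and rho = 0.81. Of the 456 genes called higher in the parent, 378 were above 0 in the hybrid, and of the 2962 called lower, 2806 were below 0. The test of the difference, fitted on all 8 columns for 4518 genes, called 180 genes (3.98%) with higher and 64 (1.42%) with lower TE in the parent than in the hybrid. Among called genes with a mean of at least 50 ppm over the 8 columns, the largest positive differences were in HOB2, Scer_13.45, PUF3, NTE1, CLG1 and TVS1. HOB2 had 7.61 and 5.62 ppm in RPF in the parent and 1.82 and 1.05 ppm in the hybrid. It reached the limit of 50 ppm only through its mRNA, so its difference rests on weak footprints. The largest negative ones were in YML108W, GCV2, JJJ3, MRT4, GTF1 and MRP2.

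NTE1, a phospholipase of phosphatidylcholine turnover, had a TE of 1.32 in the parent and -0.70 in the hybrid, a difference of 2.02 ± 0.22 (SE). It had 242 and 241 ppm in RPF and 95.7 and 97.7 ppm in mRNA in the parent, against 75.1 and 91.0 ppm in RPF and 130.3 and 139 ppm in mRNA in the hybrid (limma, adjusted p = 0.00184). PUF3 was at 2.31 in the parent and 0.26 in the hybrid, and CLG1, a cyclin-like partner of Pho85, at -0.07 and -1.99. MRT4, an assembly factor of the 60S stalk, went the other way, at 0.01 in the parent and 1.40 in the hybrid, with 516 and 519 ppm in RPF in the parent and 992 and 1185 ppm in the hybrid. GCV2, the glycine decarboxylase, was at -1.80 in the parent and -0.06 in the hybrid. GCN4 was at -2.58 in the parent and -3.68 in the hybrid, a difference that did not pass the test (adjusted p = 0.101).

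The difference moved with gene length. Its rho with coding length was 0.56, from a rho of 0.19 for the RPF and -0.48 for the mRNA difference between the strains, and the median coding length was 3258 bases in 152 called higher genes with an R64 coding sequence, 633 bases in 61 called lower and 1287 bases in all 4288. The part of length in these calls was not tested. The calls were also unstable: leaving out 1 of the 8 columns gave between 22 and 977 called genes in place of 244. Omission of parental RPF replicate 2 or of hybrid mRNA replicate 2 left 22 genes, that of parental mRNA replicate 2 left 43, that of parental RPF replicate 1 left 56 and that of hybrid mRNA replicate 1 left 153. Omission of hybrid RPF replicate 2 raised the count to 593, and that of hybrid RPF replicate 1 to 977. None differed by more than 1.5-fold at an adjusted p under 0.05, where limma gave 188 genes at an unadjusted p under 0.05. Of the 22 cytosolic ribosomal protein genes, 7 had lower and none higher TE in the parent, beside 1.42% and 3.98% of all genes. The list medians were -0.12 in the parent and 0.57 in the hybrid. Those 7 genes were short, from 327 bases in RPS25B to 771 bases in RPL8A, and the part of length was not tested.

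**Figure D5:**
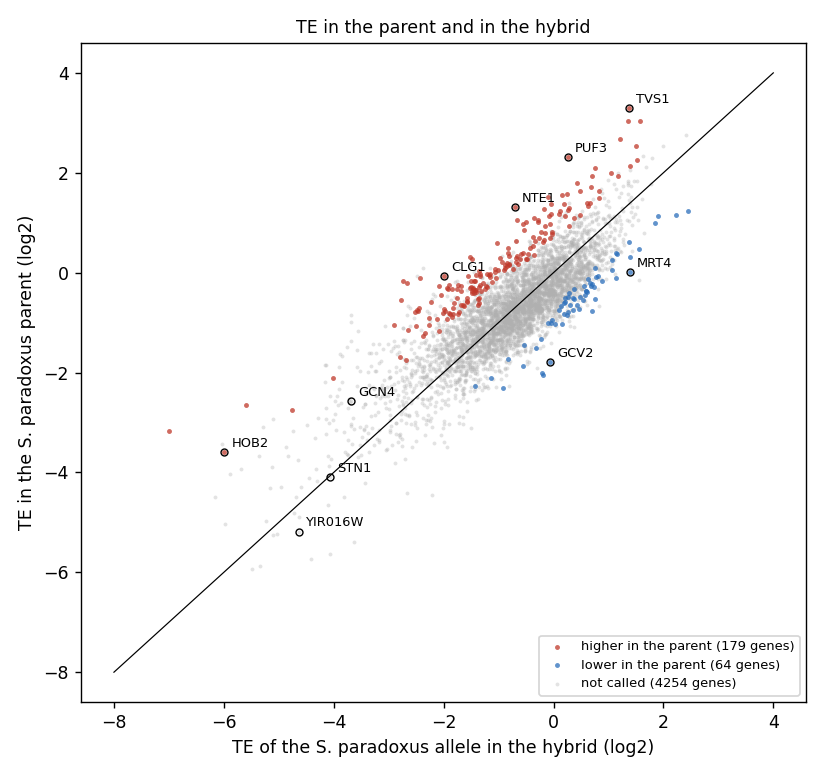
TE in the S. paradoxus parent (vertical) against TE of the S. paradoxus allele in the hybrid (horizontal), both log2 and each from 2 RPF and 2 mRNA libraries, for the 4497 genes tested in both fits. Red and blue points had higher and lower TE in the parent at an adjusted p under 0.05, the line marks equal TE, and most points lie along it.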

How the data were processed

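Ribosome-protected and poly-A selected RNA fragments were sequenced from log-phase yeast, after isolation of monosomes and subtraction of ribosomal RNA per the labels' protocols. Per the description deposited with the table, the authors summed base-level coverage over the unmasked bases of each gene, a signal and not a read count, and multiplied each S. paradoxus column by 1 factor (2.13 and 0.417 for RPF, 0.866 and 0.859 for mRNA), which cancels in the shares used here. Per the submitters' processing notes, CASAVA 1.8.2 and Bowtie 0.12 were used. The sources used here do not tell the genome build, the strandedness or how the 2 lanes of RPF replicate 2 were joined. 3 blank lines were dropped, 32 other per-sample columns were not used, 235 genes had no systematic name and 4401 were matched to R64.

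Each column was divided by its total, and log2(ppm + 0.5) was tested with limma 3.58.1 (trended prior, two-sided, Benjamini-Hochberg adjustment) in R 4.3.3, for genes with a mean of at least 3 ppm. TE was tested on the 4 parental columns, and the difference from the hybrid as an interaction on 8 columns. The pseudocount understates ratios of weak genes. With 2 columns a group, precision rests on a prior spread shared across genes, with 2 residual degrees of freedom of the columns and 92.8 in total. Python 3.11.15 (pandas 2.3.3, scipy 1.17.1, matplotlib 3.10.9) was used for the rest, and the fit was tested on simulated data. Genes, lists and tests were chosen with earlier results of these data known. Named genes were the 12 highest and 12 lowest called genes with a mean of at least 50 ppm and replicates that do not overlap, the highest and lowest members of each of 27 lists, all uORF and splicing genes, and the 6 largest differences from the hybrid each way. Divergence and TATA marks were deposited by the authors. 1 gene of the 12 highest is not reported here.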

Additional observations from a re-analysis of the deposited data

Results flagged for a closer look

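The test of the parent against the hybrid, an interaction of fraction and strain, singled out 244 genes whose S. paradoxus alleles differed in TE between the strains (limma, adjusted p under 0.05). Among those with a mean of at least 50 ppm over the 8 columns, differences are given in log2 units as parent minus hybrid. The largest positive ones were HOB2 (2.40), Scer_13.45 (2.32), PUF3 (2.05), NTE1 (2.02), CLG1 (1.92) and TVS1 (1.92). HOB2 reached that limit only through its mRNA, with 1.82 and 1.05 ppm in RPF in the hybrid. The largest negative ones were YML108W (-1.87), GCV2 (-1.74), JJJ3 (-1.47), MRT4 (-1.39), GTF1 (-1.31) and MRP2 (-1.28). The difference over all genes moved with coding length at rho = 0.56, and the part of length in these genes was not tested.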

How the results depend on the processing

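In the parent, called genes numbered 3418 (456 higher, 2962 lower) and stayed within 1.5 times of that except in the test against 1.5-fold, with 1789 called (146 higher, 1643 lower), and with median-of-ratios scaling, with 1437 higher and 1368 lower. Leaving out 1 column gave 2988 to 3281 called, 371 to 435 higher and 2617 to 2846 lower. For the parent against the hybrid, 244 (180 higher, 64 lower) became 119 (104 and 15) with RPF and mRNA weighted by their own spread, 18 (17 and 1) with a constant prior spread, 0 (0 and 0) in limma's test against 1.5-fold, which had 188 at an unadjusted p under 0.05, and 42 lower with median-of-ratios scaling. Leaving out 1 of its 8 columns gave 22 to 977 called, 20 to 542 higher and 1 to 435 lower, the extremes being without parental RPF replicate 2 or hybrid mRNA replicate 2 and without hybrid RPF replicate 1. The cause of these shifts was not tested.

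With the replicate number as a block, 3485 genes were called in the parent and 447 in the difference (303 higher, 144 lower). The deviations of same-numbered RPF and mRNA columns correlated at 0.145 in the parent and 0.115 in the hybrid over 2 pairs, and no label says that a number marks shared cultures, so the numbers were not taken as pairs.

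All 24 genes of the extremes kept direction and call in every setting, as did 59 of 110 other named genes. The low genes of the extremes, except YKR075C, had reached the limit of 50 ppm only through their mRNA. None of the 12 difference genes kept its call in the test against 1.5-fold. Median-of-ratios scaling turned the sign of BTT1 (0.12), CAM1 (0.67), CLN3 (0.63), GCN3 (0.073), HTZ1 (0.19), MDH1 (0.39), PHO85 (0.67), RPS25B (0.057), SCO1 (0.57), SES1 (0.58), SPO14 (0.053), SUP45 (0.090), TDH1 (0.54), TRL1 (0.21), WRS1 (0.54) and YAP1 (0.31). Leaving out 1 column moved the TE of CAM1 between -0.083 and 0.019, CLN3 between -0.44 and 0.29, PHO85 between -0.14 and 0.080, SPS2 between -0.070 and 0.22 and TDH1 between -0.43 and 0.13. Depth in reads was unknown, which limits what can be said of genes with few ppm.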
